A study of Mus musculus with 4 samples.

Results

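The AP-1 transcription factor genes were followed on 4 one-colour Agilent arrays of transformed mouse fibroblasts, as 10 genes of the 24658 genes and transcripts tested. They were taken by symbol from the probes that are not array controls. They comprise 4 FOS family genes (Fos, Fosb, Fosl1, Fosl2), 3 JUN family genes (Jun, Junb, Jund) and 3 partners of the ATF and JDP type (Atf3, Atf2, Jdp2). The array carried 15 probes for them, 1 probe for each of 7 genes, 2 each for Fosl2 and Junb and 4 for Atf2, and all 15 were well above background on all 4 arrays.

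AP-1 is a pair of basic leucine zipper (bZIP) proteins that binds DNA at the TPA response element, named for the phorbol ester that activates it. FOS proteins must pair with a JUN or another bZIP protein, whereas JUN proteins can also pair with each other. Fos, Fosb, Jun, Junb and Atf3 are known as immediate-early genes, whose RNA appears and decays soon after a stimulus, and Fosl1 is known as a later gene that AP-1 itself can activate. In fibroblasts AP-1 is known for its part in growth control, in matrix turnover and in transformation by phorbol esters and oncogenes.

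The cells were C3H10T1/2, an established line of mouse embryo fibroblasts that form foci when transformed by carcinogens. All 4 samples carried the same history: the carcinogen 3MC (MCA in the series title) at 2.5 µg/ml for 2 days, normal medium for 4 days, the phorbol ester TPA at 100 ng/ml, given repeatedly over 2 weeks, and 4 more weeks without TPA. The control group (2 arrays) was left untreated after transformation, and the other group (2 arrays) was exposed to 0.25 mM diethyl maleate (DEM), an electrophile that binds glutathione. How long DEM was present is not given, and untransformed cells were not analysed here, so the comparison concerns DEM in transformed cells only.

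Levels below are log2 processed signal after subtraction of each array's 75th percentile, a scale on which a probe can be compared between arrays but not with another probe. Before scaling, that percentile was 701 and 747 for untreated cells and 449.9 and 412 for DEM. Arrays of a group correlated at 0.987 (untreated) and 0.984 (DEM) across probes, against 0.964 to 0.968 across groups. Whether the arrays of 1 group represent separate cultures is not stated in the labels, and p-values therefore reflect the spread among these samples alone, which could be technical. Spot positions put both untreated arrays in one part of the slide and both DEM arrays in another, so slide position and group cannot be told apart. Fibroblast markers were present: 11 of 12 were well above background on all 4 arrays. Their summed linear level was 1593 and 1648 in untreated cells and 880 and 1266 with DEM. Of the 12, 6 were called lower (Col1a2, Col3a1, Dcn, Lum, Pdgfra, Pdgfrb), beside 11.8% of all genes. Lum was not well above background on either DEM array. The part of this shift in the results below was not tested. In RNA of whole cultures, fewer cells of a type and less RNA per cell cannot be told apart. For other cell types, the epithelial sum was 0.18 to 0.27, the macrophage and leukocyte sum 0.41 to 0.57 and the endothelial sum 0.08 to 0.18. Each sum adds different probes, so sums can be compared between arrays but not between cell types. Of those markers, Cdh1, Cldn4, Esrp1, Adgre1, Itgam, Ptprc, Cdh5 and Kdr were not well above background on any array. The skeletal muscle sum was 6.35 and 7.62 in untreated cells against 0.61 and 0.60 with DEM, with Ckm, Myf5, Myod1 and Myog never well above background. Of that list Acta1 (2.52 and 2.76 against -1.04 and -0.90) and Tnnt1 were lower with DEM (limma, adjusted p = 0.000650 and 0.00385). Tnnt1 was not well above background on either DEM array. The adipocyte sum was 9.54 to 12.4, with Adipoq, Lep and Plin1 never well above background. Fabp4 and Pparg were well above background on all 4 arrays. Fabp4 read 2.73 and 2.40 in untreated cells and 2.66 and 2.94 with DEM. Pparg read 2.24 and 2.09 in untreated cells and 2.56 and 2.22 with DEM. Neither passed the threshold (limma, adjusted p = 0.438 and 0.431).

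The sequences just upstream of the start are shown for Jun, Fos and Atf3, chosen because their windows held a match in the wider search described below. They come from the RefSeq table of GRCm38.p6, which held 11 windows (250 bases before to 50 bases after a start) for 9 members (all but Fosl1), 3 of them for Jdp2. Both strands were searched for TGACTCA (the TPA response element), TGACGTCA (the cyclic AMP response element), TGACNNNGC (the core of the antioxidant response element) and the CArG box bound by serum response factor. None of the 11 windows of these 9 members held any of these 4, while 5.20%, 1.79%, 12.4% and 1.63% of all 32851 windows did. Sites more than 250 bases before a start lay outside the windows, so this search cannot say that these promoters lack them. A wider search, added once the exact ones had found no match in a member, allowed at most 1 mismatch to TGACGTCA and found a match in 3 of 11 member windows and in 12.5% of all windows. The capitals mark those matches, and positions are counted back from the start, whose preceding base is -1. Jun is shown from -105 to -1 (chr4:95052223-95052327, minus strand, match at -45 to -38), Fos from -189 to -62 (chr12:85473701-85473828, plus strand, match at -129 to -122) and Atf3 from -70 to -1 (chr1:191183334-191183403, minus strand, match at -10 to -3).
Jun: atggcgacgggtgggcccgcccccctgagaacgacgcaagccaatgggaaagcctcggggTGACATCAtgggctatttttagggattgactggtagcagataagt
Fos: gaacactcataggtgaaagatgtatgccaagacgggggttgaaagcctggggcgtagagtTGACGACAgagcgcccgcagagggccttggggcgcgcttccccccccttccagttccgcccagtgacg
Atf3: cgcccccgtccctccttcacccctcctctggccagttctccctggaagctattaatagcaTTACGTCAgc
A match is a description of the letters only, and whether it is a known binding site was not checked. Binding was not measured on these arrays.

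Of the 10 AP-1 genes, 1 was higher with DEM (Fosl1), 1 was lower (Jun) and 8 did not pass an adjusted p of 0.05 (limma, Benjamini-Hochberg over all genes, 2 arrays a group). Among all genes tested the same rule called 27.2%, with 15.5% higher and 11.8% lower, so the share of AP-1 genes called (20%) was near the background. The arrays of the groups did not overlap for 5 members, with DEM above untreated for Fosl1 and below for Fos, Jun, Jund and Jdp2, whereas 68.5% of all genes did not overlap. The median log2 change was -0.25 over the 10 members and 0.16 over all genes. The members' median was -0.01 without untreated replicate 2, -0.14 without DEM replicate 1, -0.40 without DEM replicate 2 and, by scaling, down to -0.59 (spike-in). An exact two-sided permutation test on 2 against 2 arrays cannot go below p = 0.333, so it cannot pass 0.05 for any gene. The balance of calls over all genes moved with scaling: 56.8% of them were higher, against 46.6% with quantile normalization, 40.9% with cyclic loess and 22.5% with scaling to the spike-in controls, so small changes are relative to the scaling used.

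**Figure D1:**
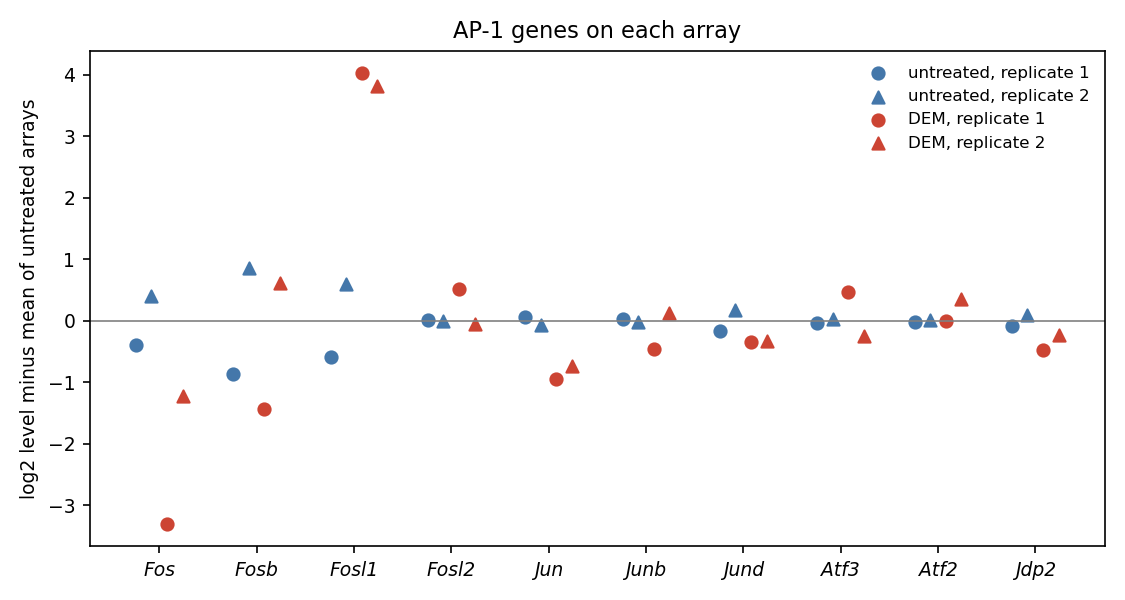
Log2 level of each AP-1 gene on each array minus the mean of its untreated arrays, with 1 point per array (2 untreated, 2 DEM). Fosl1 stands 3.92 above on average with DEM, Fos is below with its DEM arrays far apart, and most other members lie near 0.

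Fosl1, which encodes the FOS family protein FRA1, was the member with the largest change. Its level was -0.31 and 0.87 in untreated cells and 4.30 and 4.10 with DEM. Both DEM arrays were far above both untreated arrays, and the DEM pair was much closer together than the untreated pair (SD 0.14 against 0.84). The log2 change was 3.92 ± 0.38 (SE; 95% interval 2.99 to 4.86), a 15.2-fold rise (limma, adjusted p = 0.00238), and by size it ranked at 253 among the 24658 genes. The untreated arrays differed by 2.27-fold from each other, which is small beside the change between groups, and within same-numbered pairs the log2 change was 4.61 and 3.23. The rise passed under all 15 alternative settings tried, with values from 3.33 to 4.51.

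Fos, the cellular counterpart of the viral oncogene for which the family is named, pointed the other way. Its level was 2.45 and 3.24 in untreated cells and -0.46 and 1.63 with DEM. Both DEM arrays were below both untreated arrays, but they lay 4.23-fold apart from each other, with processed signals of 328 and 1274 against 3820 and 7075 on the untreated arrays. The log2 change was -2.26 ± 0.66 (95% interval -3.88 to -0.64), which missed the threshold (limma, adjusted p = 0.0518). The call turned on the setting: it passed under 7 of 15, and without DEM replicate 1 the value was -1.22 against -3.30 without DEM replicate 2. Those 7 included spike-in scaling, where p-values rest on the prior, and the replicate block, for which pairing is not established. They also included the fits with 1 DEM array left out.

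Fosb encodes a close relative of FOS and is likewise an immediate-early gene. Its level was -1.21 and 0.51 in untreated cells and -1.79 and 0.26 with DEM. The groups overlapped, and array 2 was above array 1 in both groups, by 3.30-fold and 4.15-fold. The log2 change was -0.41 ± 0.80 (95% interval -2.36 to 1.53; limma, adjusted p = 0.725), so a change of more than 2-fold in either direction lies within its interval. Fos shared the order of the replicates with Fosb: its array 2 was above its array 1 by 1.74-fold in untreated cells. Over all kept probes, deviations of same-numbered arrays correlated at only 0.10, and what the replicate number stands for is not given beyond the label.

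Fosl2 encodes FRA2, a family member that, like FRA1, lacks the strong activation domain of FOS. Its brighter probe read 1.47 and 1.45 in untreated cells and 1.97 and 1.40 with DEM. The groups overlapped, with 1 DEM array above and 1 just below the untreated pair, and the log2 change was 0.23 ± 0.24 (95% interval -0.35 to 0.80; limma, adjusted p = 0.512), or -0.12 with spike-in scaling. The dimmer probe, which the array assigns to the same RefSeq transcript, read -2.79 and -3.34 in untreated cells and 0.12 and -1.33 with DEM. Both of its DEM arrays were above both untreated arrays, and in the fit of single probes its log2 change was 2.46 ± 0.49, a 5.51-fold rise (limma, adjusted p = 0.0169). The probes of Fosl2 therefore disagreed, and with the mean of both probes the gene passed at 1.34 (limma, adjusted p = 0.0398). The dimmer probe has a GC content of 55% and the brighter one of 35%, and the part of either probe's composition was not tested.

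Jun encodes c-Jun, the JUN family protein that JNK kinases phosphorylate. Its level was 2.61 and 2.48 in untreated cells and 1.59 and 1.81 with DEM. Both DEM arrays were below both untreated arrays, and each pair was close (SD 0.09 and 0.15). The log2 change was -0.84 ± 0.18 (95% interval -1.29 to -0.40), a 1.79-fold fall (limma, adjusted p = 0.0216). The call was lost with spike-in scaling (-1.18, adjusted p = 0.147) and without untreated replicate 1 (-0.78, adjusted p = 0.149) or untreated replicate 2 (-0.90, adjusted p = 0.117), while the direction held in all 15 settings.

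Junb and Jund encode the other JUN proteins, of which JUNB is known as a weaker activator that can oppose c-Jun and JUND as the form present in resting cells. Junb read 7.70 and 7.66 in untreated cells and 7.22 and 7.80 with DEM on its brighter probe. Its DEM arrays lay on either side of the untreated pair, and the log2 change was -0.16 ± 0.21 (95% interval -0.68 to 0.35; limma, adjusted p = 0.597). The other Junb probe gave -0.19 (limma, adjusted p = 0.596), close to the first. Jund read 5.65 and 6.00 in untreated cells and 5.47 and 5.49 with DEM. Both DEM arrays were below both untreated arrays by a narrow margin, and the log2 change of -0.34 ± 0.17 (95% interval -0.76 to 0.08) did not pass (limma, adjusted p = 0.192). With quantile or cyclic loess normalization Jund passed, at -0.62 in both (limma, adjusted p = 0.0320 and 0.0338).

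Atf3, Atf2 and Jdp2 encode partners of the JUN proteins: ATF3 is a stress-induced repressor, ATF2 is a substrate of the p38 and JNK kinases, and JDP2 is a repressor of AP-1 activity. Atf3 read 3.22 and 3.28 in untreated cells and 3.71 and 3.01 with DEM. Its DEM arrays lay on either side of the untreated pair, with a log2 change of 0.11 ± 0.26 (95% interval -0.52 to 0.74; limma, adjusted p = 0.782), and the sign turned under quantile (-0.08), cyclic loess (-0.10) and spike-in (-0.24) scaling. Jdp2 read 3.34 and 3.52 in untreated cells and 2.96 and 3.21 with DEM. Both DEM arrays were below both untreated arrays, with a log2 change of -0.35 ± 0.18 (95% interval -0.79 to 0.09) that did not pass (limma, adjusted p = 0.200).

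Atf2 was read by 4 probes. The brightest read 1.55 and 1.58 in untreated cells and 1.56 and 1.91 with DEM. The groups overlapped on it, and its log2 change was 0.17 ± 0.20 (95% interval -0.32 to 0.65; limma, adjusted p = 0.566), or -0.18 with spike-in scaling. The third by brightness read -1.95 and -1.82 in untreated cells and -0.54 and -1.22 with DEM. Both of its DEM arrays were above both untreated arrays, and its log2 change of 1.00 ± 0.29 passed narrowly in the fit of single probes (limma, adjusted p = 0.0493). The second and the fourth Atf2 probe gave -0.23 and 0.55 and did not pass (limma, adjusted p = 0.498 and 0.294). Their groups did not overlap either, the second with DEM below untreated and the fourth with DEM above. For the second the margin was slight (-0.7726 on DEM array 1 against -0.7652 on untreated array 1). The fourth was dim, with processed signals of 31.7 and 52.7 in untreated cells and 40.3 and 31.5 with DEM. Before scaling, the groups therefore overlapped on the fourth probe. In that fit, 5 of the 15 AP-1 probes passed, 3 higher and 2 lower, against 26.8% of 31771 probes. The 2 lower probes were those of Jun and Fos, the latter at an adjusted p of 0.0499 (limma) with the same log2 change as above.

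**Figure D2:**
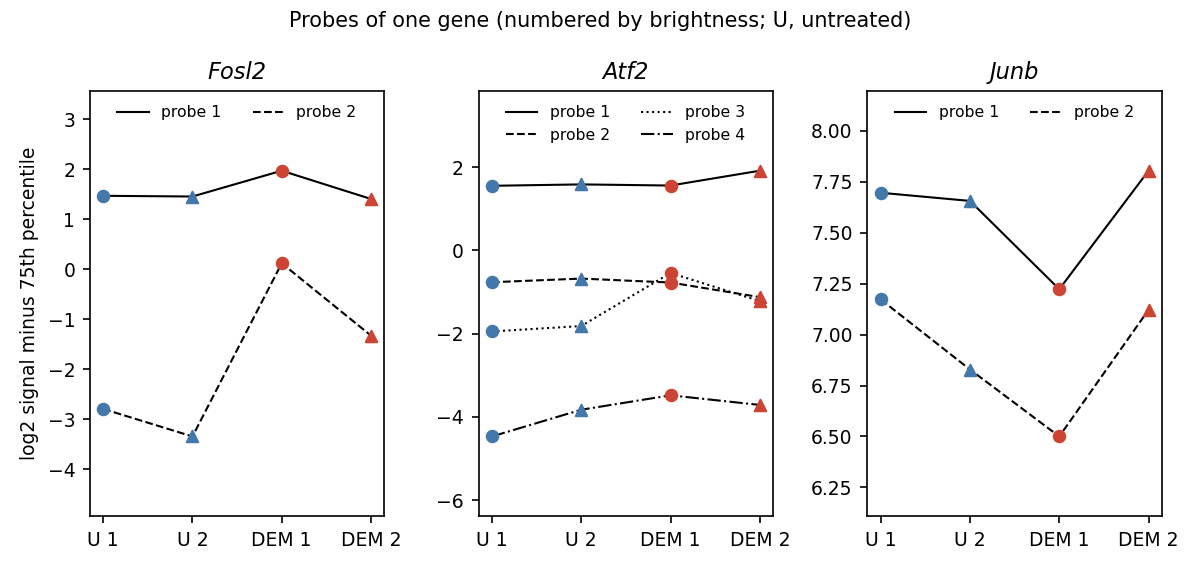
Log2 level on each array for every probe of the 3 members with several probes, numbered by brightness, with untreated arrays marked U and a line joining the values of 1 probe. With DEM the dimmer Fosl2 probe and the third and the fourth Atf2 probe are above both untreated arrays. The second Atf2 probe is below both, by a slight margin on DEM 1, and the brightest probe of each gene overlaps between groups.

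**Figure D3:**
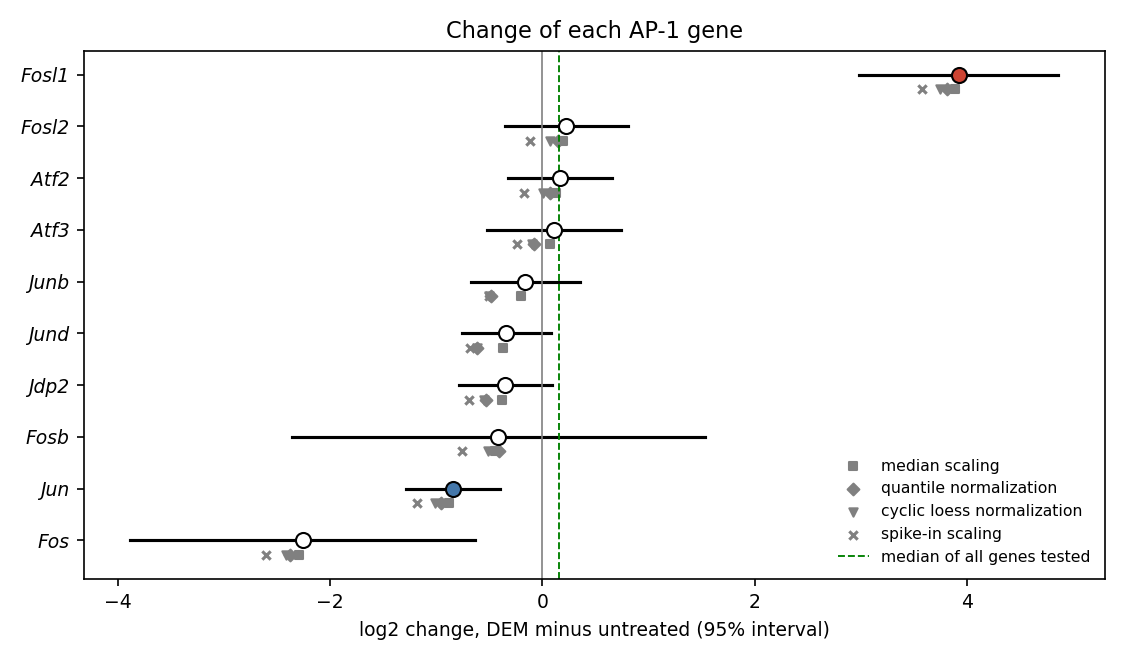
Log2 change with DEM of each AP-1 gene, with the 95% interval of the limma fit as a bar and other scalings as grey symbols; filled points passed an adjusted p of 0.05 and the dashed line is the median of all genes (0.16). Fosl1 and Jun are the filled points, Fos and Fosb have the widest intervals, and the grey symbols of Atf3 fall on both sides of 0.

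The genes whose 4-array pattern was most like that of Fosl1 were sought among 11355 genes of plain symbol that were well above background on all 4 arrays. The measure was the Euclidean distance between profiles, each centred on its untreated mean. The nearest were Blvrb, which encodes a biliverdin reductase (distance 0.786, log2 change 3.74), Slc16a6, a monocarboxylate transporter family gene (0.809, 3.92), and Gclc, the catalytic subunit of the enzyme that limits glutathione synthesis (0.839, 3.61). With 4 arrays in 2 groups, likeness here amounts to a similar size of change.

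Other bZIP genes, which can share partners or sites with AP-1, changed in both directions: of 27 tested, 9 rose, 5 fell and 13 did not pass, a called share of 51.9% beside 27.2% of all genes. Their median log2 change was 0.61, against 0.16 over all genes. These genes were listed with earlier results of these data known, so neither their called share nor their median measures enrichment. Crem, which encodes a cyclic AMP response modulator, read 0.29 and 0.32 in untreated cells and 2.52 and 2.49 with DEM, a 4.60-fold rise (limma, adjusted p = 0.00132). Both pairs were tight and far apart, and all 5 of its kept probes rose. The small MAF genes Mafg and Maff, whose proteins lack an activation domain and pair with NRF2, rose by 3.77-fold and 3.08-fold (limma, adjusted p = 0.00228 and 0.00243), and Maff did not pass with spike-in scaling, where only Crem and Mafg of the 9 did. Maf, the large family member, was at least 9.28-fold lower with DEM, where its probe was not well above background on either array (limma, adjusted p = 0.000985). With normexp correction, which adds an offset, the fitted fold of Maf was 3.71, below that bound. A bound of this kind divides the bright group's mean by a floor, which on each array is the lowest level marked well above background or, if higher, what the dim probe read. The other genes that rose were Atf1, Atf5, Cebpb, Cebpg, Creb1 and Ddit3, at 0.76 to 1.36 on the log2 scale, and those that fell were Bach2, Cebpd, Creb3l1 and Creb5, at -1.64 to -1.25. Fewer rose when an untreated array was left out, 3 without replicate 1 and 5 without replicate 2. Closest to the threshold without passing were Atf6 (0.61 ± 0.19, adjusted p = 0.0570) and Bach1 (0.88 ± 0.27, adjusted p = 0.0573), the latter a repressor that competes for small MAF partners. Atf6 passed in 3 of the 15 settings and Bach1 in 4.

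Genes upstream of AP-1, the MAP kinases, their activators and the ternary complex factors that act on Fos, mostly did not pass: among 23 tested, 3 rose, 2 fell and 18 missed the threshold (21.7% called, beside 27.2% of all genes). Their median log2 change was -0.20, with values from -0.54 (spike-in) to -0.04 (normexp) over the settings. Another 4 of the 27 listed (Elk1, Elk4, Mapk10 and Mapk13) failed the filter on dim probes, which left Elk3 as the only ternary complex factor tested. Map2k6, which encodes a kinase that activates p38, was at least 15.6-fold lower (limma, adjusted p = 0.000650) and not well above background on either DEM array, while with normexp correction its fitted fold was 5.04, below that bound. Map2k3, which encodes another p38 activator, read 1.34 and 1.61 in untreated cells and 2.33 and 2.32 with DEM, a 1.80-fold rise (limma, adjusted p = 0.0218). These 2 activators of p38 moved in opposite directions. Srf, which encodes the serum response factor that binds the Fos promoter, read 3.90 and 4.06 in untreated cells and 3.08 and 3.21 with DEM, a 1.79-fold fall (limma, adjusted p = 0.0165). Both groups were tight, but Srf and Map2k3 lost their calls with spike-in scaling and without either untreated array. Mapk9, which encodes the kinase JNK2, rose by 3.43-fold (limma, adjusted p = 0.00381), with 1 of its 3 kept probes in the opposite direction, and it did not pass with spike-in scaling. Mapk11 rose by 0.79 on the log2 scale, not passing with spike-in scaling, and Mapk8, which encodes JNK1, had a value of 0.09. Just outside the threshold were Map2k2 (0.62 ± 0.18, adjusted p = 0.0539) and Mapk3 (-0.71 ± 0.23, adjusted p = 0.0647), which passed in 3 and 5 of the 15 settings.

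Of 10 tested genes that govern the decay of AP-1 proteins or RNAs, 1 rose, 1 fell and 8 did not pass (20% called, beside 27.2% of all genes), with a median of 0.06 whose sign turned in 5 of the 15 settings, spike-in scaling (-0.28) among them. Zfp36l1, which encodes a protein that speeds decay of RNAs with AU-rich elements, read 3.69 and 3.75 in untreated cells and 2.11 and 1.75 with DEM. Both DEM arrays were well below both untreated arrays, a 3.47-fold fall (limma, adjusted p = 0.00303) that passed in all 15 settings. Det1, which encodes a part of the ubiquitin ligase complex that acts on c-Jun, rose by 1.96-fold (limma, adjusted p = 0.0122) and did not pass with spike-in scaling or without either untreated array. Cop1, a ubiquitin ligase for c-Jun, had a log2 change of 0.43 ± 0.15 (adjusted p = 0.0879), and Elavl1, which encodes an RNA-stabilising protein, 0.42 ± 0.18 (adjusted p = 0.127).

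Genes known as AP-1 targets moved in both directions: of 28 tested, 10 rose, 9 fell and 9 did not pass, a called share of 67.9% beside 27.2% of all genes. Their median log2 change was -0.35 as fitted and -0.19 with the gene that was not well above background with DEM placed at its bound, and its sign turned with normexp (0.02) and with a filter for all 4 arrays (0.08). Hmox1, which encodes haem oxygenase, read 4.21 and 4.85 in untreated cells and 9.30 and 8.48 with DEM, a 20.5-fold rise (limma, adjusted p = 0.00121). Ptgs2, the inducible prostaglandin synthase gene, read -0.02 and 0.01 in untreated cells and 2.76 and 2.62 with DEM, a 6.49-fold rise (limma, adjusted p = 0.000999). The groups were far apart for both. Sqstm1, which encodes the autophagy receptor p62, rose by 4.85-fold and Odc1, which encodes ornithine decarboxylase, by 4.14-fold (limma, adjusted p = 0.000816 and 0.00103), and these 4 genes passed in all 15 settings. Areg, Hbegf, Mt1, Mt2, Plaur and Timp1 rose as well, at 0.96 to 2.73 on the log2 scale. Hmox1, Sqstm1 and the metallothionein genes Mt1 and Mt2 are also known targets of factors other than AP-1, so the list is not specific to it. Another 4 of the 32 listed targets (Krt18, Mmp9, Mmp10 and Mmp13) were on the array but failed the filter on dim probes. The list was chosen with earlier results of these data known, so its called share is no measure of enrichment.

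The targets that fell included Il6, Lox, Spp1 and Thbs1, named here after their values were seen. Lox, which encodes an enzyme that cross-links collagen, fell by 1.80 on the log2 scale and Spp1, which encodes osteopontin, fell by 2.59 (limma, adjusted p = 0.00518 and 0.00570). Il6, a cytokine gene, fell by 1.66 and Thbs1, which encodes the matrix protein thrombospondin, fell by 2.31 (limma, adjusted p = 0.00383 and 0.00802), and neither of these passed without untreated replicate 1. Ccl2, Ccnd1, Cd82 and Sparc fell as well, at -1.66 to -0.72. Mmp3 passed narrowly as lower (limma, adjusted p = 0.0469), but its probe was well above background on only 1 of the 2 DEM arrays, so no size is given. Fibroblast markers moved with DEM too: 6 of 12 were called lower, beside 11.8% of all genes, and Col1a1 (-0.04) did not pass. The part of these markers in the falls was not tested. Plau, the urokinase gene, did not pass (limma, adjusted p = 0.0658), and since its probe was not well above background on either DEM array it has only a bound, at least 1.04-fold lower. Vegfa, the angiogenic growth factor gene, had a log2 change of 1.14 ± 0.39 that did not pass (limma, adjusted p = 0.0785). Plau passed in 4 of the 15 settings and Vegfa in 3, with Vegfa from 0.52 to 2.03 over the settings.

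**Figure D4:**
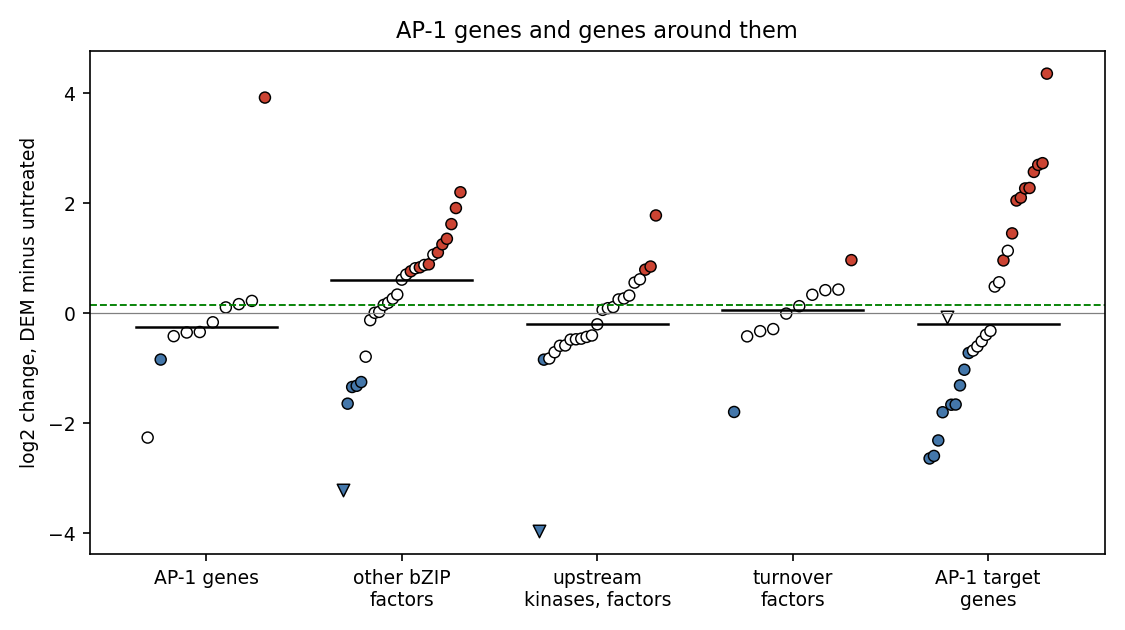
Log2 change with DEM of each tested gene in the AP-1 list and 4 related lists; red points rose, blue fell, white did not pass, a downward triangle marks a gene drawn at its lower bound, the bar is the list's median and the dashed line the median of all genes (0.16). The AP-1 genes are mostly white, and the AP-1 target list has coloured points on both sides of 0.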

How the data were processed

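Each sample's total RNA (500 ng) was labelled with Cy3 and read on its own custom mouse array from Agilent, per the labels. Spot intensity values were made with Agilent Feature Extraction 10.7.3.1 (protocol GE1_107_Sep09), per the file headers, which had subtracted background, and which set the mark for spots well above background. The authors also deposited a table of log2 values for the series, with column medians of -4.39, -4.35, -4.30 and -4.36. Against log2 processed signal, at least 99.98% of probes differed by 1 constant per array (tolerance 0.01), close to the 75th percentile, which settles its scale and centring. It was used as an alternative.

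Control spots (1319 of 62976) and spots with outlier marks were left out; no spot was saturated. Probes well above background on at least 2 arrays were kept (31771), and the brightest stood for each gene. Names came from RefSeq (GRCm38.p6) by accession, symbol or synonym (28136, 4982 and 1406 probes), and 26783 probes kept the name in the array files. The comparison used lmFit and eBayes of limma 3.58.1 (R 4.3.3, with version 1.17.8 of the data.table package and, for plots, matplotlib 3.10.9) and let the prior variance follow intensity; residual degrees of freedom were 2 and prior ones 4.03. Two-sided p-values were adjusted by Benjamini-Hochberg across the 24658 genes, or across all probes in the fit of single probes, with a threshold of 0.05. The code was tested on simulated data. The number of arrays limits the precision.

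Samples were grouped by the treatment label. Members and gene lists were chosen with earlier results of these data known. All members are named; in each other list up to 4 genes with the smallest p that passed and 2 that did not are named with full values, and other names were chosen after their values were seen. Alternatives covered background correction, scaling, the authors' values, filters, the probe rule, the variance trend, a replicate block and each array left out.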

Additional observations from a re-analysis of the deposited data

How the results depend on the processing

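With 2 arrays a group, precision is limited by their number, and where 1 array stands alone in a group, the spread comes from the other group, which the lone array is assumed to share. Higher genes made up 56.8% of all calls (3812 higher, 2900 lower), against 46.6% with quantile normalization, 40.9% with cyclic loess (2529 higher), 70.0% with normexp (6470 higher) and 22.5% with spike-in scaling (655 higher), and the median of all genes moved from 0.16 to 0.01 with cyclic loess and to -0.18 with spike-in scaling. With no filter on dim probes 17297 genes were higher. With spike-in scaling limma gave all genes of like brightness 1 variance, so its p-values there rest on the prior.

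Lower AP-1 genes numbered 3 with cyclic loess and 2 with normexp, quantile normalization, a filter for all 4 arrays and the replicate block, against 1, and higher ones numbered 2 with the mean of all probes. Fos passed at -2.42 (cyclic loess, adjusted p = 0.0494), -2.19 (normexp, 0.0269), -2.60 (spike-in, 2.69e-05) and -2.26 (all 4 arrays, 0.0345). Jund passed at -0.62 with quantile normalization and with cyclic loess. Fosl2 passed at 1.34 with the mean of all probes and was -0.12 with spike-in scaling, where Jun was -1.18 and did not pass. Atf3 turned to -0.080 (quantile), -0.10 (cyclic loess) and -0.24 (spike-in), and Atf2 to -0.18 (spike-in).

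Lower upstream genes numbered 5 with normexp, quantile normalization, cyclic loess and the replicate block, and 1 with spike-in scaling and with the filter for all 4 arrays. Higher upstream genes numbered 5 with no filter and with the block and 0 with spike-in scaling (limma; 1 at an unadjusted p under 0.05). Higher turnover genes numbered 2 with no filter and 0 with spike-in scaling (limma; 0 unadjusted), and higher bZIP genes 2 with spike-in scaling.

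The replicate number was tried as a block (pairing): deviations of same-numbered arrays correlated at 0.10 over 2 pairs, which does not establish pairing. With the block 4473 genes were higher and 3378 lower, and Fos had an adjusted p of 0.00232 (limma) at the same -2.26.

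Leaving out 1 array at a time, all higher genes ranged from 644 to 4488 and lower from 802 to 3814. Fewest passed without an untreated array: 836 higher and 872 lower without replicate 1, 644 and 802 without replicate 2. Lower AP-1 genes ranged from 0 to 2 (limma; 2 and 1 at an unadjusted p under 0.05 where 0), bZIP genes from 3 to 12 higher and 1 to 6 lower, upstream genes from 1 to 4 and 1 to 5, turnover genes from 0 to 1 (1 unadjusted where 0) and 1 to 2, and lower targets from 3 to 10. Log2 changes ranged from -3.30 to -1.22 for Fos, -0.95 to -0.73 for Jun, -0.51 to -0.17 for Jund, -0.47 to -0.23 for Jdp2, -1.44 to 0.61 for Fosb, -0.06 to 0.51 for Fosl2, -0.45 to 0.13 for Junb, -0.24 to 0.46 for Atf3 and -0.01 to 0.35 for Atf2. Fosb reversed without DEM replicate 1 (0.61) and untreated replicate 2 (0.45), Fosl2 (-0.057), Junb (0.13) and Atf3 (-0.24) without DEM replicate 1, and Atf2 (-0.011) without DEM replicate 2. Fosl1 kept its call in all 15 settings.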
